A study of Mus musculus with 24 samples.

Results

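The p53 pathway genes described here are 10 genes of the mouse, Trp53 and 9 genes known to be regulated by its protein: Mdm2, Cdkn1a, Phlda3, Trp53inp1, Ccng1, Sesn2, Bbc3, Bax and Btg2. They were taken by name, with no threshold on a level or a change, and all 10 were found among the 35591 genes of the count table. They were followed through 24 poly(A) RNA libraries of mouse embryonic stem cells (mESCs), all from male lines, differentiating towards neuromesodermal progenitors (NMPs), the bipotent cells that give rise to spinal cord and trunk mesoderm. There were 6 lines, 3 of genotype Smchd1[fl/+] (wt) and 3 of genotype Smchd1[del/+] (het), and the sampling days were 0, 2, 2.5 and 3, which gave 8 groups of 3 libraries. All 6 lines came from the same type of cross, of a Castaneus mother with intact Smchd1 and a C57BL/6 father. The father carried a deleted and a floxed allele and the MMTV-Cre transgene, which is driven by the promoter of mouse mammary tumor virus. The wt lines thus also carried a floxed allele. Each line came from a separate blastocyst. On day 0 the cells were in DMEM with serum and LIF, the factor that holds stem cells undifferentiated. LIF was then withdrawn and bFGF given, and from day 2 the Wnt pathway was activated with CHIR99021. The het against wt comparison asked whether loss of a single Smchd1 copy alters expression, and the comparisons of neighbouring days asked how the genes move as cells leave pluripotency and enter the Wnt phase.

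The p53 protein is a transcription factor that is held low in unstressed cells because Mdm2, a ubiquitin ligase that is itself a p53 target, marks it for degradation. When p53 is released from Mdm2 it raises genes that stop the cell cycle, restrain growth signalling or start apoptosis. Mouse ES cells are known for abundant Trp53 RNA and protein and for a cell cycle with little p21. Because p53 is controlled largely as a protein, the level of Trp53 RNA does not measure its activity.

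Library totals ranged from 7.10 to 20.8 M (mega) counts with a median of 17.9 M, and the smallest was wt day 2.5 line 2. Levels of a gene are given as counts per M counts (CPM) after TMM scaling (a correction for library composition by trimmed means), with the 3 lines of a group in the order 1, 2 and 3. The lowest count of any of the 10 genes in any library was 52 (Bbc3) and the highest was 12121 (Ccng1). Smchd1, the deleted gene, stood at 66.3%, 59.9%, 66.0% and 54.7% of the wt mean in het lines on days 0, 2, 2.5 and 3, and its het and wt lines did not overlap on any day, as was so for 11.7% to 16.5% of all genes. By edgeR it passed on day 2 (adjusted p 0.00824) and day 3 (adjusted p 0.0307) and did not on day 0 (adjusted p 0.1004) or day 2.5 (adjusted p 0.907). Without het line 3 on day 2, and without wt line 2 or het line 3 on day 3, 0 of all genes were called, Smchd1 included. The cells followed the labelled course. The summed level of 10 naive pluripotency markers fell from between 1198 and 1252 CPM in wt lines on day 0 to between 148 and 185 CPM on day 2, and that of 8 NMP markers was 2.83 to 6.39 CPM on day 2 and 690 to 1362 CPM on day 2.5. The summed level of 16 endoderm markers was 7536 to 15401 CPM in wt and 4567 to 6354 CPM in het on day 2, with 11 of 13 tested markers lower in het by edgeR, beside 0.551% of all genes called on that day. In wt on day 2 the highest means among these markers were 2677 (Lama1), 2656 (Col4a1), 2100 (Lamb1), 1496 (Sparc) and 1188 CPM (Col4a2). Ttr, Afp and Apoa1 had means of 0.386, 0.0177 and 0.103 CPM. The markers called were 0 to 2 without wt line 3 or any het line, and 1 in one model of the 24 libraries. On day 0 the sums did not overlap either, at 2324 to 3882 CPM in wt and 1345 to 1947 CPM in het. On day 2.5 they overlapped, at 5257 to 13630 CPM in wt and 5570 to 8097 CPM in het, as they did on day 3, at 5227 to 10391 and 3994 to 6588 CPM, and 0 of 13 markers passed on days 0, 2.5 and 3. In bulk RNA, fewer cells of a type and less RNA per cell cannot be told apart.

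The p53 protein binds DNA at a response element made of a pair of half-sites, 20 bases in all, that lie side by side. RefSeq windows of 250 bases before to 50 after a gene's start (GRCm38.p6) were found for 9 of the 10 genes, all but Trp53inp1, in 12 windows. A pair of half-sites with at most 1 mismatch and 0 or 1 base between them was found in 3 of these 12 windows, and in 58 of all 32851 windows (0.177%). With at most 3 mismatches it was found in 5 of the 12 and in 11.7% of all windows. An exact half-site was found in 5 of the 12 windows and in 8.36% of all windows. The genes were chosen for being known to be regulated by p53, so the contrast with all windows is not a test. The p53 half-site reads the same on both strands, so a single scan covers both, and such a match is a description of letters and not evidence of binding in these cells. The 5 stretches are shown because they are the closest matches among the genes whose levels follow. Each is written 5′ to 3′ on the gene's strand, and capitals mark the half-sites.

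Cdkn1a, upstream start, chr17:29090908-29090967, + strand, 1 mismatch: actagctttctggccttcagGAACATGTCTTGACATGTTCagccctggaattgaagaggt

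Ccng1, chr11:40755442-40755501, - strand, 1 mismatch: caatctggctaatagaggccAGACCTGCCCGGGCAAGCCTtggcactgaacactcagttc

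Bax, chr7:45467070-45467130, - strand, 1 mismatch and 1 base between half-sites: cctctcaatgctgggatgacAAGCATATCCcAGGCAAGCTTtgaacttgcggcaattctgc

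Bbc3, chr7:16309466-16309525, + strand, 3 mismatches: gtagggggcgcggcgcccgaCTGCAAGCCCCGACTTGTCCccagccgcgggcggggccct

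Trp53, chr11:69580264-69580323, + strand, 3 mismatches: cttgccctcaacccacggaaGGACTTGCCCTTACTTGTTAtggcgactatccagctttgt

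The upstream Cdkn1a element lay 51 to 32 bases before that start, and its window was the only one of the 12 with 2 exact half-sites. The windows of Mdm2, Phlda3, Sesn2 and Btg2, the second start of Cdkn1a and the other starts of Bbc3 had 4 to 6 mismatches at their best match. No match in a window of this length says only that these letters are not in it.

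**Figure D1:**
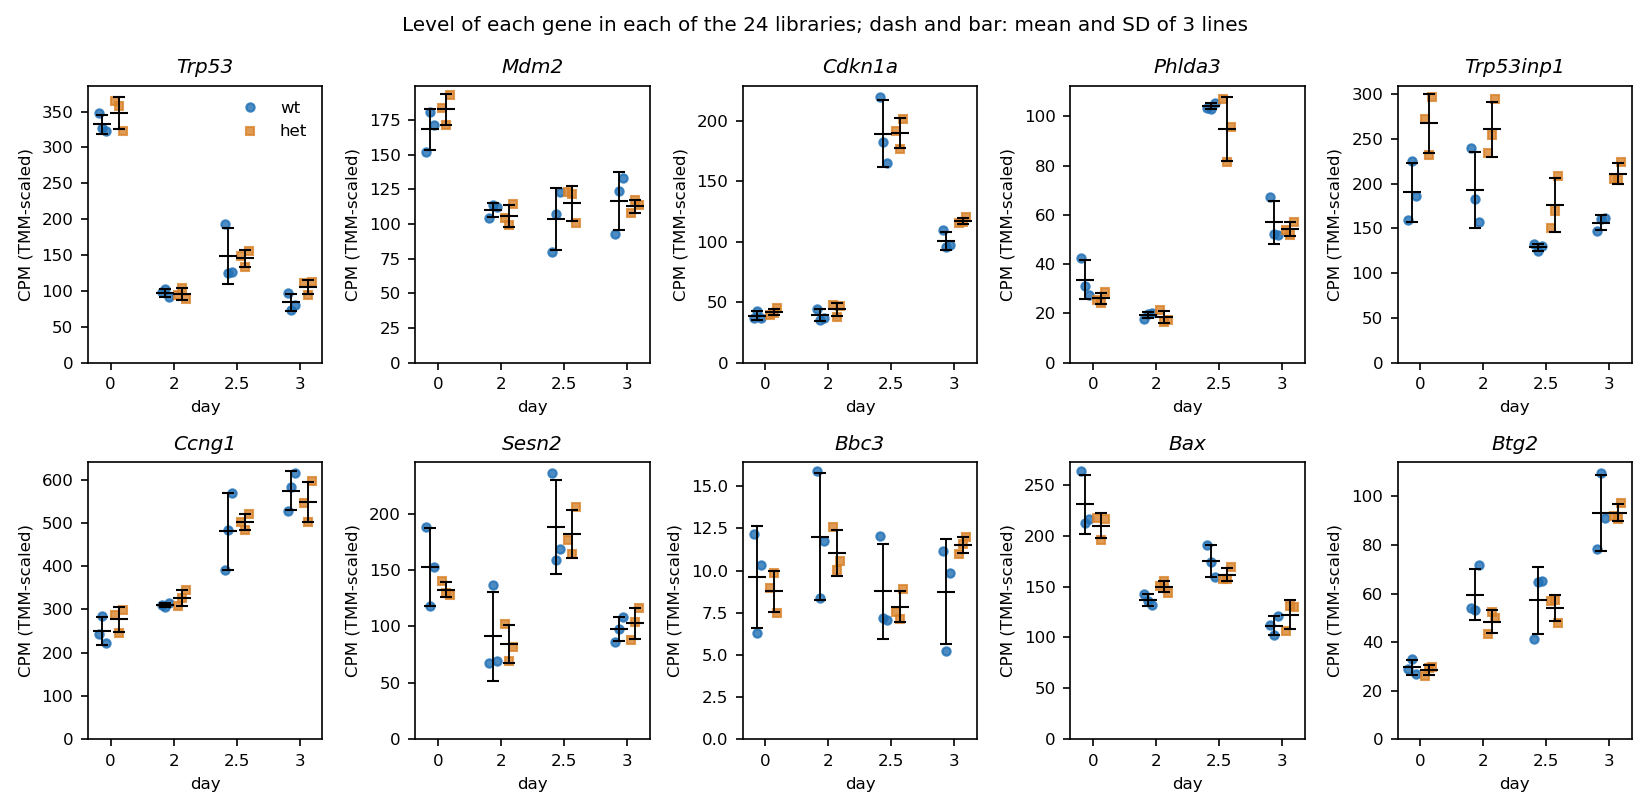
Level (CPM, TMM-scaled, linear axis from 0) of each of the 10 genes in every library against the day, with wt lines as blue circles, het lines as orange squares, and the mean and SD of 3 lines in black. Trp53 is highest on day 0 (322 to 364 CPM over the 6 lines), Cdkn1a and Phlda3 peak on day 2.5, and Ccng1 and Btg2 are at their highest group mean on day 3.

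Trp53 (ENSMUSG00000059552, GRCm38.p6 chromosome 11, 69580359 to 69591873) fell steeply as the cells left the stem cell medium, rose on Wnt activation and fell again. On day 0 it measured 348, 326 and 323 CPM in the wt lines and 364, 358 and 322 CPM in the het lines. On day 2 it measured 98.1, 102 and 91.6 CPM in wt and 93.8, 104 and 89.1 CPM in het. On day 2.5 the values were 194, 125 and 127 CPM in wt and 149, 133 and 156 CPM in het, and on day 3 they were 97.5, 73.4 and 80.5 CPM in wt and 110.4, 93.7 and 112 CPM in het. Every day 0 library lay above every later library, and every line rose from day 2 to day 2.5 and fell from day 2.5 to day 3. By the edgeR quasi-likelihood test the log2 fold change of day 2 against day 0 was -1.77 (SE 0.10, adjusted p 1.49e-08) in wt and -1.85 (SE 0.07, adjusted p 2.5e-11) in het. The rise at day 2.5 was 0.61 (SE 0.16, adjusted p 0.0121) in wt and 0.58 (SE 0.09, adjusted p 0.000151) in het on the log2 scale. The day 3 change was -0.82 (SE 0.17, adjusted p 0.0093) in wt and -0.49 (SE 0.09, adjusted p 0.00255) in het by edgeR. Without wt line 2, the smallest library of day 2.5, the day 3 call was lost in wt (adjusted p 0.101). Trp53 in wt line 1 on day 2.5 stood apart at 194 CPM beside 125 and 127 CPM in the other two.

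Mdm2 (ENSMUSG00000020184, chromosome 10, 117688875 to 117710758) fell at the first step, as Trp53 did, and passed the test at no later step. Its day 0 levels were 152, 181 and 172 CPM in wt and 184, 171 and 193 CPM in het. On day 2 they were 104, 114 and 112 CPM in wt and 104, 99.2 and 115 CPM in het, below every day 0 library. The log2 fold change was -0.61 (SE 0.11, adjusted p 0.000353) in wt and -0.78 (SE 0.08, adjusted p 4.08e-07) in het by edgeR. From day 2 to day 3 Mdm2 ranged from 79.4 to 133 CPM over the libraries of these days, and neither later step passed the test in either genotype (edgeR adjusted p 0.45 to 0.704). Without het line 3 the second step passed in het (adjusted p 0.0399).

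Cdkn1a, Ccng1 and Btg2 act on the cell cycle, and they followed different courses. Cdkn1a (ENSMUSG00000023067, chromosome 17, 29090976 to 29100727) encodes p21, the inhibitor of cyclin-dependent kinases through which p53 stops the cycle. It was low and flat at first, with 36.7, 43.0 and 36.9 CPM in wt and 39.6, 41.0 and 45.0 CPM in het on day 0, and 44.6, 35.4 and 37.1 CPM in wt and 47.8, 38.0 and 47.0 CPM in het on day 2. On day 2.5 it stood at 219.6, 183 and 165 CPM in wt and 192, 177 and 201 CPM in het. On day 3 it was back to 109, 95.4 and 97.6 CPM in wt and 116, 116 and 120.4 CPM in het. The 4 days fell into 3 levels that did not overlap in any line, low on days 0 and 2, high on day 2.5 and intermediate on day 3. The mean rose 4.84-fold in wt and 4.30-fold in het from day 2 to day 2.5. In edgeR the log2 value of this rise was 2.27 (SE 0.15, adjusted p 3.24e-07) in wt and 2.08 (SE 0.10, adjusted p 3.36e-09) in het. The fall to day 3 was -0.90 (SE 0.12, adjusted p 0.00148) in wt and -0.72 (SE 0.08, adjusted p 0.000115) in het on the log2 scale in edgeR. Without wt line 2 the fall in wt no longer passed (adjusted p 0.0739). The exons of Cdkn1a overlap those of a gene on the other strand (AC167363.2), and 90.6% of the 75-base stretches of its longest transcript occur in no other annotated gene, so without known strand in counting a small share of its counts is uncertain.

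Ccng1 (ENSMUSG00000020326, chromosome 11, 40748552 to 40755311), the gene of cyclin G1, which brings a phosphatase to Mdm2, was higher at each later day, in small steps. It measured 243, 286 and 223 CPM in wt and 288, 245 and 298 CPM in het on day 0, and 310.4, 305 and 316 CPM in wt and 308, 327 and 344 CPM in het on day 2. On day 2.5 it reached 390.5, 483 and 569 CPM in wt and 502, 483 and 519.6 CPM in het. On day 3 it stood at 527, 582 and 615 CPM in wt and 546, 503 and 597 CPM in het, all above every library of days 0 and 2. Each of the 6 lines was higher on the later day at each of the 3 steps. The log2 fold change in edgeR was 0.32 (SE 0.11, adjusted p 0.0261) in wt and 0.25 (SE 0.07, adjusted p 0.0101) in het at the first step, and 0.63 (SE 0.13, adjusted p 0.0031) and 0.60 (SE 0.07, adjusted p 2.2e-05) at the second. In wt the first call was lost without line 1 or line 3 (adjusted p 0.0788 and 0.332) and the second without line 2 or line 3 (0.06 and 0.0548), and in het the first was lost without line 2 (0.122) or in one model of the 24 libraries (0.0762), all in edgeR. The third step did not pass (edgeR adjusted p 0.201 in wt and 0.378 in het), while with the line as a replicate block it passed in wt, with an adjusted p of 0.0281.

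Btg2 (ENSMUSG00000020423, chromosome 1, 134075170 to 134079120) encodes an antiproliferative protein that promotes removal of poly(A) tails. It rose at the first and the third step. The wt lines measured 28.8, 33.0 and 27.0 CPM on day 0, 53.9, 53.03 and 71.6 CPM on day 2, 41.2, 64.8 and 65.4 CPM on day 2.5 and 78.4, 109.8 and 91.2 CPM on day 3. The het lines measured 25.9, 29.2 and 29.8 CPM on day 0, 43.2, 52.3 and 49.8 CPM on day 2, 56.9, 57.1 and 47.9 CPM on day 2.5 and 92.1, 90.6 and 97.5 CPM on day 3. Day 0 was lowest and day 3 highest in all 6 lines, and days 2 and 2.5 overlapped. The log2 fold change of day 2 against day 0 was 1.01 (SE 0.16, adjusted p 0.000127) in wt and 0.78 (SE 0.11, adjusted p 3.1e-05) in het by edgeR. That of day 3 against day 2.5 was 0.71 (SE 0.19, adjusted p 0.0261) in wt and 0.76 (SE 0.10, adjusted p 0.000273) in het by edgeR. In wt this last call was lost without line 2 or line 3 (adjusted p 0.186 and 0.069, edgeR).

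The genes that restrain growth signalling followed the day 2.5 peak of Cdkn1a. Phlda3 (ENSMUSG00000041801, chromosome 1, 135766119 to 135769136) encodes a small protein that competes with Akt for membrane lipids. In wt it measured 42.4, 31.2 and 27.6 CPM on day 0, 17.9, 19.9 and 20.2 CPM on day 2, 104, 103 and 106 CPM on day 2.5 and 67.0, 52.2 and 51.7 CPM on day 3. In het it measured 25.6, 24.2 and 28.5 CPM on day 0, 21.4, 16.6 and 17.4 CPM on day 2, 107, 81.3 and 95.7 CPM on day 2.5 and 53.9, 51.8 and 57.2 CPM on day 3. The 4 days did not overlap in either genotype. Its mean rose 5.39-fold in wt and 5.13-fold in het from day 2 to day 2.5, the largest fold of the 10 genes at any step in both genotypes. The edgeR log2 fold change was 2.43 (SE 0.13, adjusted p 1.07e-07) in wt and 2.34 (SE 0.13, adjusted p 1.75e-08) in het. Phlda3 had fallen at the first step, its log2 fold change being -0.80 (SE 0.18, adjusted p 0.0026) in wt and -0.49 (SE 0.14, adjusted p 0.00908) in het by edgeR. It fell again to day 3, with -0.86 (SE 0.12, adjusted p 0.00193) in wt and -0.83 (SE 0.11, adjusted p 0.000276) in het by edgeR. The first fall did not pass in het without line 3 (adjusted p 0.0896), nor the last in wt without line 2 (0.0829), in edgeR.

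Sesn2 (ENSMUSG00000028893, chromosome 4, 132492032 to 132510501), the gene of sestrin 2, which restrains mTORC1 and is also a target of the stress factor Atf4, fell, rose and fell. The wt lines stood at 188, 118 and 153 CPM on day 0, 67.2, 137 and 69.4 CPM on day 2, 236, 159 and 169 CPM on day 2.5 and 86.6, 97.6 and 108 CPM on day 3. The het lines stood at 140.4, 129.7 and 128 CPM, then 102, 69.0 and 81.8 CPM, then 177, 164 and 206 CPM and last 88.3, 104 and 116 CPM on the same days. On day 2, wt line 2 was high at 137 CPM, about the level of day 0, and was the only line that was higher on day 2 than on day 0. The edgeR log2 fold changes of the 3 steps in wt were -0.74 (SE 0.23, adjusted p 0.0183), 1.04 (SE 0.24, adjusted p 0.00569) and -0.94 (SE 0.15, adjusted p 0.00304). In het they were -0.64 (SE 0.11, adjusted p 0.000144), 1.09 (SE 0.13, adjusted p 1.13e-05) and -0.85 (SE 0.11, adjusted p 0.000281). In wt the first call was lost without line 1 or line 3 (edgeR adjusted p 0.227 and 0.184) and by the DESeq2 Wald test (adjusted p 0.124), and the last without line 2 (edgeR adjusted p 0.0739). Of 15 genes of the Atf4 stress response, 9 rose and 0 fell in wt and 10 rose and 1 fell in het at the first step, at which Sesn2 fell and 22.4% of all genes rose in wt and 28% in het. At the second step, at which Sesn2 rose, 1 of the 15 rose and 5 fell in wt and 5 rose and 6 fell in het, where 14.6% of all genes rose and 14.5% fell in wt and 21.8% and 22.9% in het. At the third, at which Sesn2 fell, 0 rose and 5 fell in each genotype, where 10.1% of all genes fell in wt and 16% in het. Without wt line 2 the 5 falls in wt were 1 at the second step and 0 at the third.

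At the second step the apoptosis genes of the group had smaller fold changes than Cdkn1a and Phlda3. Bax (ENSMUSG00000003873, chromosome 7, 45461697 to 45466898), which forms the pore in the mitochondrial outer membrane, was highest on day 0, with 264, 212 and 216 CPM in wt and 217, 196 and 216 CPM in het. On day 2 it measured 143, 136 and 132 CPM in wt and 150.2, 155 and 144 CPM in het, on day 2.5 191, 174 and 159 CPM in wt and 158, 158 and 169 CPM in het, and on day 3 112, 102 and 121 CPM in wt and 106, 131 and 130.1 CPM in het. Every line was lower on day 2 than on day 0, higher on day 2.5 and lower again on day 3. The first fall was -0.75 (SE 0.11, adjusted p 9.31e-05) in wt and -0.48 (SE 0.07, adjusted p 2.37e-05) in het on the log2 scale, and the last was -0.64 (SE 0.11, adjusted p 0.00362) and -0.42 (SE 0.09, adjusted p 0.00509), in edgeR. The rise between them passed in wt at 0.35 (SE 0.11, adjusted p 0.0348) but not in het at 0.09 (SE 0.08, adjusted p 0.391), and the edgeR interaction of this step with genotype had an adjusted p of 0.952. The rise in wt was lost without any of the 3 lines in turn (adjusted p 0.0756 to 0.176) and the last fall in wt without line 2 (0.0981), in edgeR. Exons of Bax overlap those of Gm45808 on the same strand, and 88.3% of the 75-base stretches of its longest transcript are found in no other gene, so part of its counts is uncertain.

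Bbc3 (ENSMUSG00000002083, chromosome 7, 16308393 to 16318205) encodes Puma, a BH3-only protein that frees Bax from its inhibitors, and it was the lowest of the 10 genes in every group, in CPM and per length. Its wt lines measured 12.2, 6.31 and 10.3 CPM on day 0, 15.9, 8.36 and 11.8 CPM on day 2, 12.04, 7.18 and 7.07 CPM on day 2.5 and 11.2, 5.23 and 9.87 CPM on day 3. Its het lines measured 8.98, 9.85 and 7.47 CPM, then 12.6, 10.01 and 10.6 CPM, then 7.56, 7.15 and 8.88 CPM and last 11, 11.6 and 11.97 CPM. The wt lines spread widely, with line 1 highest on each of the 4 days. In wt no step passed the test (edgeR adjusted p 0.284 to 0.992). In het it fell at the second step, its log2 fold change being -0.51 (SE 0.20, adjusted p 0.0494), and rose at the third, with 0.53 (SE 0.16, adjusted p 0.0259), in edgeR. The first of these calls was lost under all 10 alternatives, the replicate block among them (adjusted p 0.0566 to 0.334), and the second under 5 of 10.

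Trp53inp1 (ENSMUSG00000028211, chromosome 4, 11156431 to 11174379) encodes a stress protein that takes part in autophagy and in p53-dependent cell death. It was the only one of the 10 that passed the test as lower in both genotypes at the step at which Cdkn1a rose. The wt lines stood at 159, 225 and 187 CPM on day 0, 239, 182 and 157 CPM on day 2, 132, 125 and 131 CPM on day 2.5 and 147, 161 and 162 CPM on day 3. The het lines stood at 273, 232 and 297 CPM, then 234, 255 and 295 CPM, then 150.02, 169.8 and 209 CPM and last 205, 204 and 225 CPM. All 6 lines were lower on day 2.5 than on day 2 and higher again on day 3. The fall was -0.58 (SE 0.15, adjusted p 0.00911) in wt and -0.59 (SE 0.11, adjusted p 0.000662) in het on the log2 scale in edgeR. In wt it was lost without line 2 (adjusted p 0.0803, edgeR). The difference of 0.28 (SE 0.10) in wt and 0.24 (SE 0.11) in het did not pass (edgeR adjusted p 0.0621 and 0.107), and with the replicate block it passed in wt, with an adjusted p of 0.0326. It also passed in wt without line 1 (adjusted p 0.0348), with library totals alone (0.04995) and by the DESeq2 Wald test (0.0484), and in het without a filter beyond 1 count (0.0353).

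**Figure D2:**
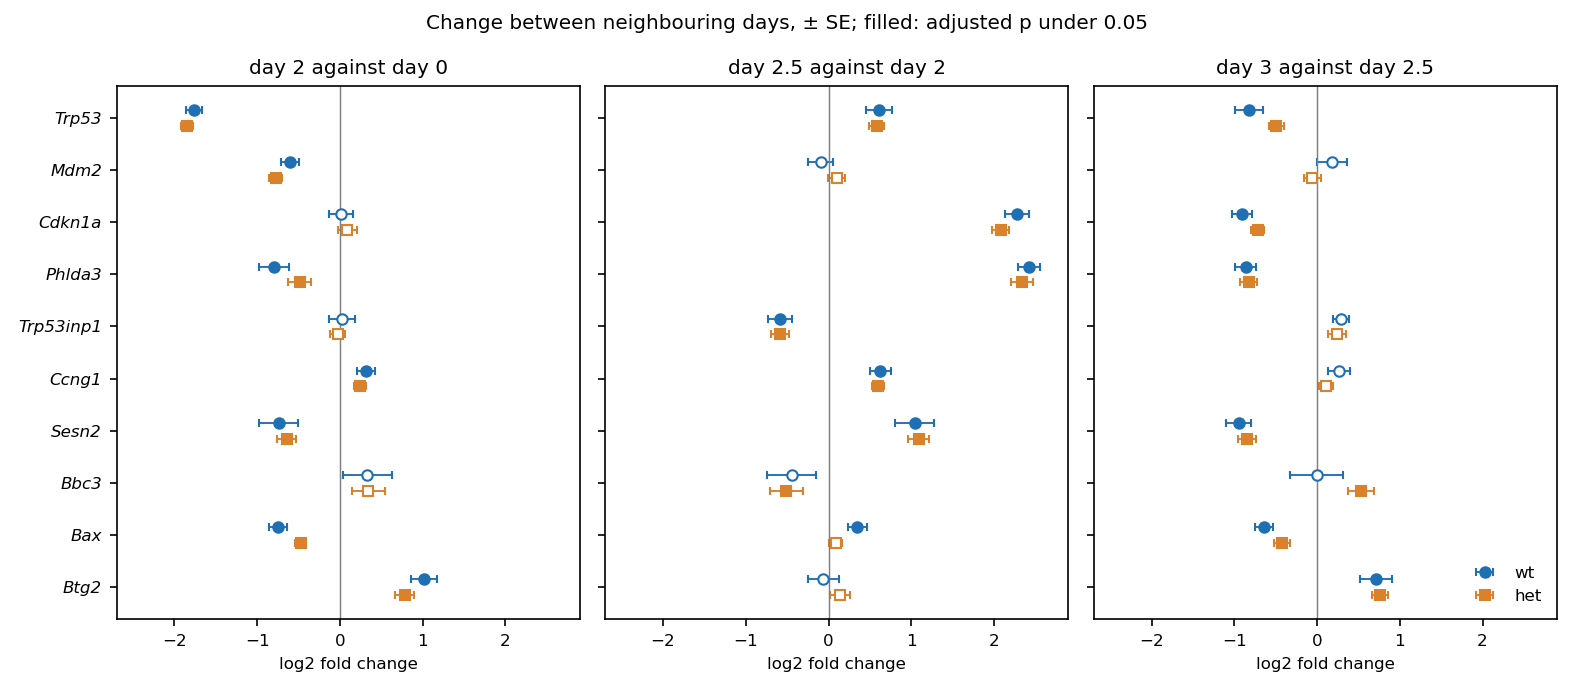
Log2 fold change with its SE for each of the 10 genes at the 3 steps between neighbouring days, wt in blue circles and het in orange squares, filled where the edgeR adjusted p is under 0.05. At the middle step Cdkn1a and Phlda3 lie beyond 2 on the log2 axis in both genotypes, while Trp53inp1 lies below 0.

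The counts of called genes among the 10 are read against those of all genes tested. From day 0 to day 2, 2 rose and 5 fell in each genotype, where 44.3% of all genes were called in wt (22.4% higher, 21.9% lower) and 56.1% in het (28% higher, 28.1% lower). The median log2 fold change of the 10 was -0.30 in wt and -0.25 in het, beside 0.02 and 0.01 over all genes. From day 2 to day 2.5, 6 rose and 1 fell in wt and 5 rose and 2 fell in het, where 29.1% of all genes were called in wt (14.6% higher, 14.5% lower) and 44.7% in het (21.8% higher, 22.9% lower). The median was 0.48 in wt and 0.36 in het, beside 0.001 and 0.01 over all genes. At this second step 4 of the 10 and 2249 of all genes were called in wt without wt line 2, instead of 7 and 4519. From day 2.5 to day 3, 1 rose and 5 fell in wt and 2 rose and 5 fell in het, where 19.1% of all genes were called in wt (8.99% higher, 10.1% lower) and 29.8% in het (13.8% higher, 16% lower). The median was -0.32 in wt and -0.24 in het, beside 0.003 and -0.02 over all genes. Without wt line 2, 0 of the 10 and 29 of all genes were called in wt at this last step, and the 6 changes called with it kept their sign. In the interaction of step and genotype 0 of the 10 passed, with 0% of all genes called at the first step, 0% at the second and 0% at the third. With 3 lines a group this does not show that the steps were alike in the genotypes.

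Per length the order of the genes changed over the course. In reads per kilobase of exon and M reads (RPKM), Bax led on day 0 with 146 ± 18.2 in wt (SD, n = 3), followed by Trp53 with 82.1 ± 3.31 and Ccng1 with 71.3 ± 9.18. Trp53 and Ccng1 differed by about the spread of the lines. On day 2.5 the order in wt was Ccng1 (137 ± 25.4 RPKM), Bax (111 ± 9.95 RPKM), Phlda3 (66.7 ± 0.819 RPKM), Sesn2 (54.1 ± 12.1 RPKM), Cdkn1a (53.3 ± 7.80 RPKM) and Trp53 (36.7 ± 9.69 RPKM), with Sesn2 and Cdkn1a not separated beyond their spread. The last places were held by Btg2 (20.8 ± 5.01 RPKM), Mdm2 (20.3 ± 4.37 RPKM), Trp53inp1 (19.9 ± 0.617 RPKM) and Bbc3 (4.13 ± 1.34 RPKM), of which the first 3 lay within their spread. With the longest transcript as the length, Bax led Ccng1 on day 2.5 and Cdkn1a followed them at 91.0 RPKM. The values of Cdkn1a, Mdm2 and Bax moved with the length by more than the SD of the lines in all 8 groups, and Bbc3 was last in all 8 groups with either length.

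Within groups the 10 genes did not vary as a block. The Pearson correlation of their log2 CPM after removal of the group means had a median of -0.02 over 45 pairs, of which 22 were positive (24 libraries, which share lines and depth). The highest values were 0.70 for Mdm2 with Btg2 and 0.67 for Mdm2 with Ccng1, and the lowest were -0.83 for Trp53 with Mdm2 and -0.74 for Trp53 with Btg2. In wt line 1 on day 2.5, Trp53, Cdkn1a, Sesn2, Bax, Bbc3 and Trp53inp1 were the highest of the 3 wt lines and Mdm2, Ccng1 and Btg2 the lowest, with Phlda3 between the other two. The deviations of Trp53 correlated with the log2 library total at 0.53, those of Btg2 at -0.39 and those of Mdm2 at -0.33. The part of depth in these correlations was not tested.

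Over all 24 libraries, the genes outside the group whose log2 CPM was most like that of Trp53, among 12447 with a mean of at least 50 counts, were Gm26825 (Pearson r 0.978), Rcor2 (0.978) and Trim28 (0.976). The genes most like Cdkn1a were Dkk4 (0.984), Tnfrsf19 (0.975) and Gm16764 (0.975). Dkk4, which encodes a secreted Wnt antagonist and is known to respond to Wnt signalling, had a mean of 0.0164 CPM in wt on day 2, which is under the level of 3 counts (0.144 to 0.422 CPM per library), 97.4 CPM on day 2.5 and 18.4 CPM on day 3. These correlations follow from the 8 groups, and libraries of a line are not independent.

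**Figure D3:**
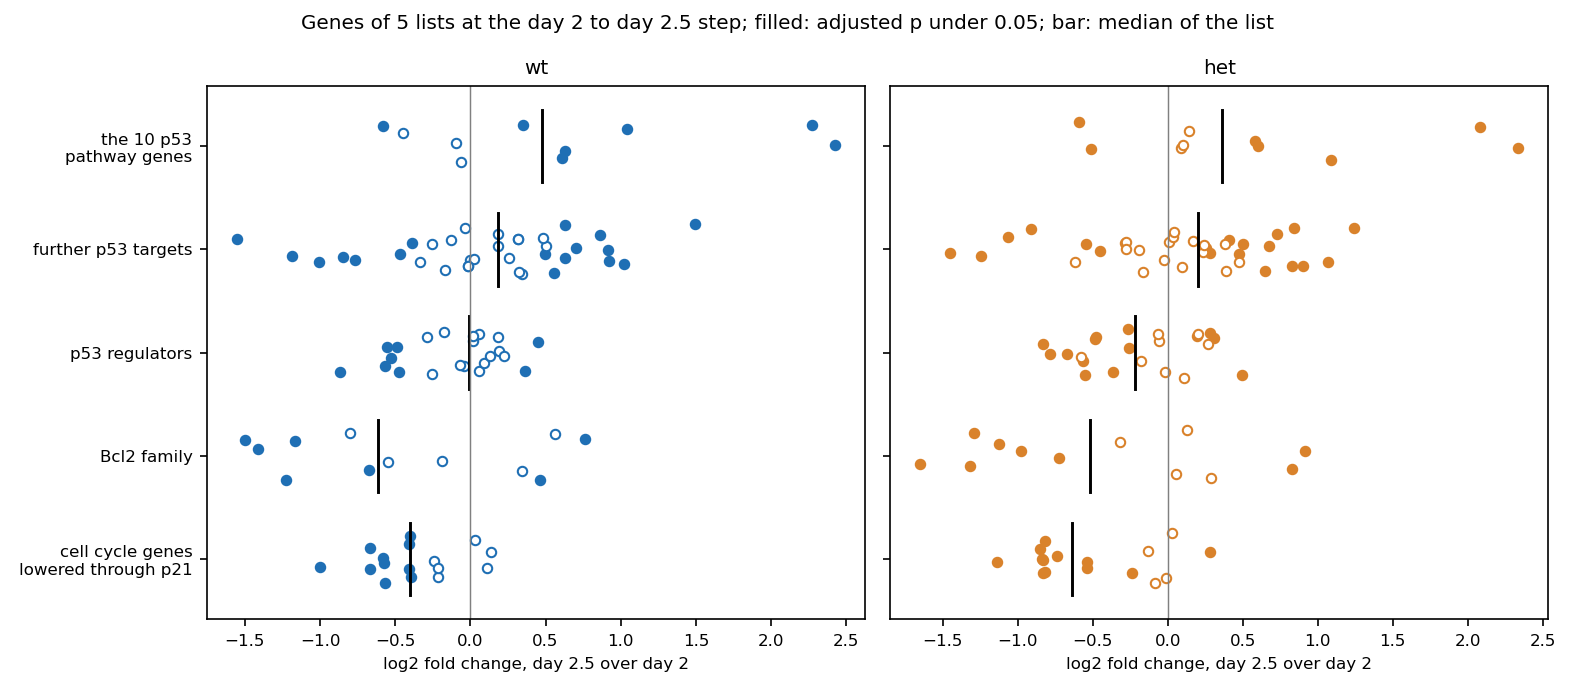
Log2 fold change of day 2.5 over day 2 for every tested gene of 5 lists, wt on the left and het on the right, filled where the edgeR adjusted p is under 0.05, with the list median as a black bar and random vertical scatter. The medians lie at 0.48 and 0.36 for the 10 p53 pathway genes, at 0.19 and 0.20 for further p53 targets and at -0.40 and -0.64 for the cell cycle genes.

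Other genes of the pathway moved in both directions. Of 36 further p53 targets, 13 rose and 12 fell of the 35 tested in wt and 16 rose and 11 fell of 36 in het from day 0 to day 2. All genes split evenly too, with 22.4% higher and 21.9% lower in wt and 28% and 28.1% in het. With 1 line left out, 8 to 14 of the targets rose and 10 fell in wt, and 13 to 17 rose and 9 to 11 fell in het. Those with the smallest adjusted p that rose were Pmaip1, the gene of the BH3-only protein Noxa (1.30, SE 0.12, in wt and 1.16, SE 0.08, in het), Ddb2, a DNA damage sensor, in wt (1.61, SE 0.18) and Apaf1, the core of the apoptosome, in het (0.89, SE 0.08), on the log2 scale in edgeR. Those that fell were Sfn, the gene of 14-3-3 sigma (-2.88, SE 0.15, in wt and -2.57, SE 0.13, in het) and Ak1, an adenylate kinase (-2.24, SE 0.15, and -2.31, SE 0.16).

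From day 2 to day 2.5, 10 of the 35 further targets rose and 7 fell in wt, and 13 of 36 rose and 6 fell in het. Of all genes, 14.6% rose and 14.5% fell in wt and 21.8% and 22.9% in het. Without wt line 2 or 3, 6 rose in wt, and without het line 1, 8 rose in het. The falls in wt were 4 to 7 with 1 line left out. The median log2 fold change of the targets was 0.19 in wt and 0.20 in het. Epha2, an ephrin receptor, led the rise (1.49, SE 0.20, adjusted p 0.000178 in wt and 1.24, SE 0.11, adjusted p 7.82e-07 in het, edgeR), with Sulf2 in wt (0.86, SE 0.13) and Aen, an apoptosis-enhancing nuclease, in het (0.73, SE 0.10). Gadd45a, the growth arrest gene named for DNA damage, led the fall (-1.55, SE 0.18, adjusted p 6.03e-05 in wt and -1.45, SE 0.12, adjusted p 5.3e-07 in het, edgeR), with Rrm2b in wt (-1.19, SE 0.22) and Plk3 in het (-1.06, SE 0.12). So Gadd45a and Cdkn1a, both arrest genes, moved in opposite directions at this step. From day 2.5 to day 3, 6 rose and 4 fell of 36 in each genotype, with medians of -0.07 in wt and 0.02 in het. Of all genes, 8.99% rose and 10.1% fell in wt and 13.8% and 16% in het. Without wt line 2, 0 of the targets rose and 0 fell in wt, and without wt line 3, 1 rose and 2 fell. Epha2 fell again (-1.52, SE 0.21, in wt and -1.14, SE 0.12, in het), as did Tigar in wt (-0.67, SE 0.12) and Aen in het (-0.63, SE 0.08), while Sesn1 in wt (0.65, SE 0.16), Abhd4 in het (0.52, SE 0.09) and Apaf1 in both (0.53, SE 0.13, and 0.56, SE 0.08) rose.

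Of 23 p53 regulators, 22 were tested, and 2 rose and 6 fell in wt and 4 rose and 10 fell in het from day 2 to day 2.5. With 1 line left out, 0 to 1 rose and 2 to 6 fell in wt, and in het 0 to 2 rose and 6 to 9 fell. With all lines, the alternatives gave 1 to 4 rises in het. At this step 14.6% of all genes rose and 14.5% fell in wt, and 21.8% rose and 22.9% fell in het. Mdm4, the partner of Mdm2 that masks the activation domain of p53, fell at the first and the second step, with log2 fold changes of -0.29 (SE 0.11, adjusted p 0.047) and -0.49 (SE 0.13, adjusted p 0.0136) in wt and -0.59 (SE 0.06, adjusted p 1.62e-06) and -0.26 (SE 0.10, adjusted p 0.0443) in het in edgeR. Its log2 fold change to day 3 was 0.59 (SE 0.12, adjusted p 0.00844) in wt and 0.23 (SE 0.10, adjusted p 0.111) in het by edgeR. In the interaction of genotype with this step 0 of the regulators passed, and without wt line 2, 0 passed in wt. Cdkn2a, whose Arf product inhibits Mdm2, was low, with group means of 8.62 to 15.7 CPM, and passed only at the second step in het (0.50, SE 0.18, adjusted p 0.038, edgeR). This call and that of Mdm4 at the same step in het each held under 3 of 10 alternatives. Of the 12 further genes of the Bcl2 family, 2 rose and 5 fell in wt and 2 rose and 6 fell in het from day 2 to day 2.5, the step with the same shares of all genes, with medians of -0.61 and -0.52. Leaving out 1 line gave 0 rises and 4 to 5 falls in wt, and 1 to 2 rises and 5 falls in het. Mcl1, an inhibitor of Bax and Bak, fell from a mean of 691 to 309 CPM in wt and from 827 to 337 CPM in het. In edgeR the log2 value of this fall was -1.16 (SE 0.12, adjusted p 3.49e-05) in wt and -1.32 (SE 0.08, adjusted p 4.92e-08) in het.

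Most of 16 genes of the cell cycle that p53 is known to lower through p21 fell at the step at which Cdkn1a rose. From day 0 to day 2, when Cdkn1a passed in neither genotype, 5 of the 16 rose and 4 fell in wt. In het 7 rose and 3 fell, and of all genes 22.4% rose and 21.9% fell in wt and 28% and 28.1% in het. With 1 line left out, 2 to 5 rose and 1 to 3 fell in wt. From day 2 to day 2.5, 0 of the 16 rose and 10 fell in wt, with a median log2 fold change of -0.40, and 1 rose and 11 fell in het, with a median of -0.64. Of all genes, 14.5% fell in wt and 22.9% in het at this step. The other 6 genes in wt and 4 in het did not pass. Without wt line 3, 4 of the 16 fell in wt. The gene that rose was Birc5 (0.28, SE 0.10, adjusted p 0.0263, edgeR), named after its value was seen, and it did not pass without het line 2 or 3. From day 2.5 to day 3, when Cdkn1a fell, 2 of the 16 rose and 1 fell in wt. In het 5 rose and 1 fell, and of all genes 8.99% rose and 10.1% fell in wt and 13.8% and 16% in het. Without wt line 2, 0 passed in wt, and with 1 het line left out 1 to 4 rose in het. The summed level of the list was 4867 to 5412 CPM in wt and 5474 to 5613 CPM in het on day 2, and 3590 to 3666 CPM and 3413 to 3731 CPM on day 2.5, so no library of either day overlapped the other. From day 2 to day 2.5 all 8 NMP markers also rose in both genotypes, and 4 of 4 epiblast markers fell. The part of the change in cell state in these results was not tested.

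**Figure D4:**
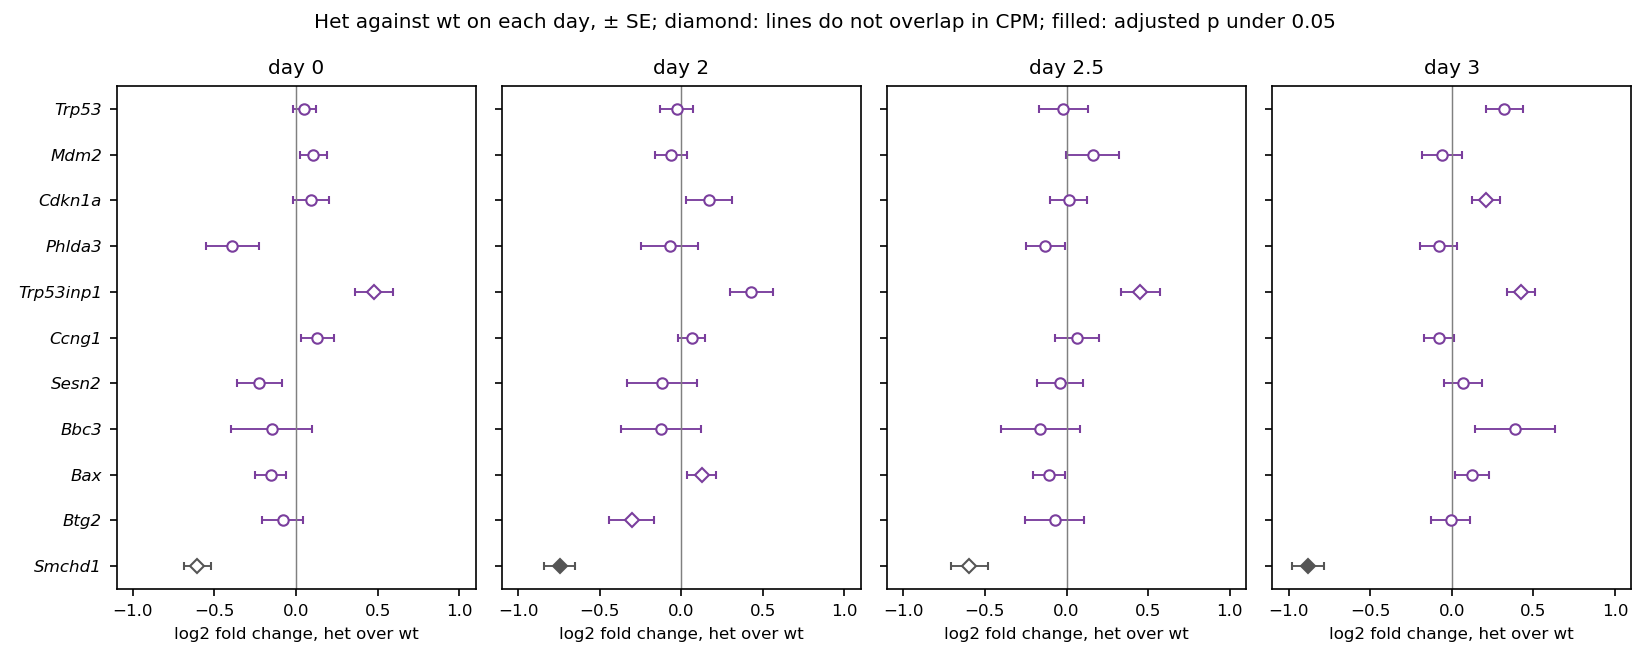
Log2 fold change of het over wt with its SE for the 10 genes and for Smchd1 on each day, with diamonds where the 3 het and 3 wt lines do not overlap and filled symbols where the edgeR adjusted p is under 0.05. Trp53inp1 lies between 0.42 and 0.48 on all 4 days and is not filled on any, while Smchd1 lies between -0.60 and -0.88.

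The genotypes were compared day by day and also with the 4 libraries of a line added together. By edgeR 0 of the 10 genes differed in any of these 5 comparisons, where 0% of all genes were called on day 0, 0.551% on day 2, 0% on day 2.5, 0.00638% on day 3 and 0.00544% in the sums. The number of all genes with an unadjusted p under 0.05 was 1649, 1576, 822, 1432 and 1663 in the same order, and by the DESeq2 Wald test 84, 234, 3, 116 and 145 genes passed. The lines of the genotypes did not overlap for Trp53inp1 on day 0 (16.5% of all genes), for Bax and Btg2 on day 2 (15.9%), for Trp53inp1 on day 2.5 (11.7%), for Trp53inp1 and Cdkn1a on day 3 (13.9%) and for Trp53inp1 in the sums (13.8%). The count of such genes was thus 1 or 2 of 10 on each day, near the share of all genes.

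Trp53inp1 had the smallest unadjusted p of the 10 in each of the 5 comparisons. Its het mean was 140.5%, 135%, 137% and 135% of the wt mean on days 0, 2, 2.5 and 3. The log2 fold change was 0.48 (SE 0.12, adjusted p 0.334) on day 0, 0.43 (SE 0.13, adjusted p 0.203) on day 2, 0.45 (SE 0.12, adjusted p 0.907) on day 2.5, 0.42 (SE 0.08, adjusted p 0.221) on day 3 and 0.40 (SE 0.08, adjusted p 0.318) in the sums, by edgeR. On day 2 a single wt line, line 1 at 239 CPM, lay above a het line, line 1 at 234 CPM. The 4 days share their lines and are not independent. Without a filter beyond 1 count it passed on days 0, 2 and 3 and in the sums, and by the DESeq2 Wald test on days 0 and 3 and in the sums. Leaving out wt line 2 on day 0, or wt line 1 on day 2 or in the sums, also brought it past the threshold. Over the alternatives its adjusted p ranged from 4.31e-06 to 0.905 on day 0, 0.00186 to 0.588 on day 2, 0.06 to 0.9995 on day 2.5, 0.00511 to 0.772 on day 3 and 0.00242 to 0.9997 in the sums, with a positive sign in all.

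The other genes did not pass on any day. Trp53 differed in log2 terms by 0.32 (SE 0.11, adjusted p 0.455) and Cdkn1a by 0.21 (SE 0.08, adjusted p 0.509) on day 3, Phlda3 by -0.39 (SE 0.16, adjusted p 0.423) on day 0 and Btg2 by -0.30 (SE 0.14, adjusted p 0.474) on day 2 by edgeR, and none passed. Cdkn1a passed in the sums once wt line 1 was left out, with 0.40 on the log2 scale (edgeR adjusted p 0.0216), beside 0.26 (SE 0.11, adjusted p 0.522) with all lines. The het level of Mdm2 was 96.3% to 111% of wt and that of Ccng1 95.4% to 111%. Bbc3 had a log2 fold change of 0.38 on day 3 with a large error (SE 0.25, adjusted p 0.678, edgeR). By edgeR, none of the further p53 targets, the regulators, the Bcl2 family or the cell cycle genes passed between genotypes on any day or in the sums with all lines. The further targets reached 3 called on day 3 with no filter beyond 1 count (Sfn, Epha2 and Perp, named after their values were seen), all higher in het. Over the alternatives with all lines they also reached 1 higher on day 0 and 1 lower in the sums. The regulators reached 1 higher on day 0 and the Bcl2 family 1 lower on day 2. With 1 line left out, the further targets reached 1 higher on day 3 and 1 higher in the sums. The median log2 fold change of the 36 further p53 targets lay between -0.02 and 0.06 over the 5 comparisons, beside -0.01 to 0.002 over all genes. A p that misses the threshold with 3 lines a group does not show that the levels are alike.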

How the data were processed

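Poly(A) RNA of 24 cultures (3 wt and 3 het lines on 4 days) was sequenced by the authors in single-end reads from TruSeq stranded or non-stranded mRNA kits, and which kit was used for which library is not stated. The authors trimmed reads with Trim Galore 0.4.4, aligned them with HISAT2 2.0.5 to GRCm38.p6 and counted reads per gene in SeqMonk. The table used, as deposited, gives unnormalized read counts by gene and library. A pair of further deposited tables of log2 values for other genes, and 8 columns of group means, were not used, while 9 rows without an identifier were kept. The treatment of reads that touch overlapping genes is not given in the sources used here.

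Counts were analysed with R 4.3.3 and edgeR 4.0.16 (TMM factors, filterByExpr by group, quasi-likelihood F test). P-values were adjusted over all genes tested by Benjamini and Hochberg, and a gene was called under 0.05. Each fit held only the libraries compared. The comparisons were of genotypes by day and on the sums per line, neighbouring days within a genotype, and the interaction of genotype and day. Replicates are lines from separate blastocysts. The same lines were sampled on each day, so the line pairs the days by design, although deviations of a line on neighbouring days correlated by only -0.05 to 0.21. Lines of the same number in wt and het are different lines. CPM was scaled by TMM, and RPKM divides it by the summed exon length of GENCODE vM21, in which 35545 identifiers were found. Fold changes of means are ratios of CPM. Levels at 3 counts or fewer are taken as the floor, and floors cover counting error only.

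The tests of the 10 genes, and, as a step added after the data were seen, those of the 5 further gene lists, of the genes named from them and of the endoderm markers on day 2, were recomputed with library totals alone or DESeq2 size factors as scaling, with the DESeq2 1.42.0 Wald test, with no filter beyond 1 count, with the line as a replicate block, in a single model of the 24 libraries, with counts thinned to the smallest library (seed 7), with the longest transcript as the length, and without each line in turn. The edgeR fit was also run on simulated counts as a check of the code, and the outcome is not given here. Plots were made in matplotlib 3.10.9 under Python 3.11.15. The 10 genes and the lists were chosen with earlier results of these data known. All 10 genes were named in each comparison. Of the further p53 targets, the rule named, at each step, the 2 that rose and the 2 that fell with the lowest adjusted p, of the other lists Mdm4, Cdkn2a and Mcl1, and for Trp53 and Cdkn1a the 3 most correlated genes. Promoter windows are from RefSeq.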

Additional observations from a re-analysis of the deposited data

How the results depend on the processing

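The sign of each called change of the 10 genes held under every alternative run. Over 54 changes with an unadjusted p under 0.05, the 571 values under alternatives kept their side of the threshold in 519 cases, lost the call in 36, gained it in 16 and reversed in 0. In het against wt the count of the 10 genes called was 1 instead of 0 without a filter beyond 1 count (days 0, 2 and 3 and the sums) and with the DESeq2 Wald test (days 0 and 3 and the sums). With one line left out it ranged from 0 to 1 on day 0, 0 to 1 on day 2 and 0 to 2 in the sums, each time without wt line 2 (day 0) or wt line 1 (day 2 and sums). At the steps in wt, leaving out a line gave 5 to 7 of 10 called at day 2, 4 to 6 at day 2.5 (4 without line 2) and 0 to 7 at day 3 (0 without line 2, where 29 genes of all were called instead of 2923). In het, leaving out a line gave 6 to 7, 6 to 7 and 6 genes. With the line as a replicate block, 8 of 10 genes and 4687 of all genes were called at day 3 in wt, 6 of 10 at day 2.5 in het, and the calls of the other comparisons of the 10 genes did not change. Between genotypes a number is shared by different lines, so there the block stands for a number only, with which 100 of all genes were called on day 3.

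The number of all genes called in het against wt, 0, 85, 0 and 1 on days 0, 2, 2.5 and 3 and 1 in the sums, reached 369, 384, 87, 274 and 190 under the alternative that called most among those with all lines. The 85 genes of day 2 fell to 23 in one model of the 24 libraries, to 8 without wt line 3 and to 1, 3 and 0 without het line 1, 2 or 3, and rose to 211 without wt line 1 and 137 without wt line 2. Without wt line 1 the count was 404 in the sums, 93 on day 3 and 35 on day 0, and without wt line 2 it was 68 on day 0. The interactions, at 0, reached 58, 33 and 23. For Smchd1 and the genes named from the further lists, 874 values of 86 changes, recomputed after the data were seen, kept their side of the threshold in 794 cases, lost the call in 71, gained it in 9 and reversed in 0. At the last step in wt, 0 genes of each of the 5 further lists were called without wt line 2. Other scalings moved the median log2 fold change of all genes by less than 0.1. Depth limits Bbc3 most, which had 52 to 322 counts per library.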
